A study of Mus musculus with 9 samples.

Results

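10 transcription factors that steer activated CD8 T cells toward killer or memory fates were followed in the messenger RNA of mouse CD8 T cells, whose task is to kill infected and tumour cells. The 10 genes, Tbx21, Eomes, Tcf7, Lef1, Id2, Id3, Klf2, Foxo1, Bach2 and Zeb2, were chosen by name, for their known roles, from the 16344 genes of the table, and all 10 passed the filter on low values. They and all gene lists were chosen with earlier results of these data known. Cells came from spleen and lymph nodes of wild-type mice, were stimulated through CD3 and CD28, and were kept overnight at 100000 cells per sample in 1 of 3 conditions. The control group (NaCl) had 20 mM salt, the second group (DAHB) had 20 mM of a compound that the labels give only by that abbreviation, and the last (DAHB+O) had DAHB with oligomycin, an inhibitor of the mitochondrial ATP synthase, at 10 nM. Each group had 3 libraries, and all 9 carry 1 batch label. The dose of DAHB is not repeated for the last group, and cells given oligomycin alone were not analysed here, so DAHB+O against DAHB isolates oligomycin only where both groups had equal DAHB. Nothing in the labels says that libraries of a group came from separate mice or cultures, so p-values measure the spread between these libraries, which may be technical.

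As background, activated CD8 T cells give rise to short-lived effector cells, which kill and make cytokines, and memory cells, which persist and keep the power to divide again. The T-box factors T-bet (Tbx21) and Eomesodermin (Eomes) drive the genes of killing and interferon-gamma, and T-bet with ZEB2 favours terminal effector cells. TCF-1 (Tcf7) and LEF1 are related factors of the WNT pathway that maintain naive, memory and stem-like cells. ID2 and ID3 lack a DNA-binding domain and hold E proteins away from DNA, ID2 being linked to effector and ID3 to memory cells. FOXO1, which the kinase AKT keeps out of the nucleus, promotes the homing and survival genes of quiescent cells, among them Klf2, whose product drives the egress receptor S1pr1. BACH2 is a repressor that occupies AP-1 sites and restrains effector genes.

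The pairs Tbx21 with Eomes and Foxo1 with Klf2 were chosen to show promoter sequence, because both members of each pair were higher in DAHB than in NaCl, while with oligomycin the messages of Foxo1 and Klf2 went opposite ways. Each sequence holds the 250 bases before the RefSeq transcription start on GRCm38.p6, written from 5′ to 3′ on the strand of the gene. It comes from chr11:97115332-97115581 (minus strand), chr9:118477939-118478188 (plus), chr3:52268087-52268336 (plus) and chr8:72318812-72319061 (plus). Capitals mark matches to the motifs searched on both strands.
Tbx21: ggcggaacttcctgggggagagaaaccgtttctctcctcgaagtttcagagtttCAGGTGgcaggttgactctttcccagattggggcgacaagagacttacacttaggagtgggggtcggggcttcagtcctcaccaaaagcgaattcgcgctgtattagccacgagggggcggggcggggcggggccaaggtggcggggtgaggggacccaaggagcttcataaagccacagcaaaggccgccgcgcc
Eomes: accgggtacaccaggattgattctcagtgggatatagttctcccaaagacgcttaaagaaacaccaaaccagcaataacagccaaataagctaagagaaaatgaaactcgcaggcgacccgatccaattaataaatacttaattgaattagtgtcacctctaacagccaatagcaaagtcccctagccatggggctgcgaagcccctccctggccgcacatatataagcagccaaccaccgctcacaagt
Foxo1: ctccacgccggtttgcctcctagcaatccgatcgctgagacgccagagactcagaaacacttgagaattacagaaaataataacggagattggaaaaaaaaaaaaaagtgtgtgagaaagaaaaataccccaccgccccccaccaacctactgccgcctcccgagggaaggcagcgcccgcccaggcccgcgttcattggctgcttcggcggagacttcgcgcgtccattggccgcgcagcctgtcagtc
Klf2: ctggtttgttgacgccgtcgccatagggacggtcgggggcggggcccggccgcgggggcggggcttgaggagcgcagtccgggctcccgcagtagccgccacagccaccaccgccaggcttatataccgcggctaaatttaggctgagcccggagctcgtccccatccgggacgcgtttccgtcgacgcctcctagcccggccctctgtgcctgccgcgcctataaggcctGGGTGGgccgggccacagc

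The 6 motifs were TGTTTAC for FOXO factors, held by 3.17% of 32851 RefSeq promoter windows of 250 bases, CTTTGAA for TCF and LEF (4.46%), GGTGTGA for T-box factors (3.33%), CACCTG for ZEB (17.2%), CCACCC for KLF (28.1%) and TGANTCA for AP-1 and BACH2 (6.75%). No motif lies within another, and CACCTG is also a form of the E-box that E proteins read. The Tbx21 window holds CACCTG on the other strand, 196 to 191 bases before the start, and the Klf2 window holds CCACCC on the other strand, 19 to 14 bases before it. None of the 6 motifs is in the Eomes or Foxo1 window. All 10 genes matched at least 1 RefSeq promoter window. The table holds 1 window for each of 7 genes, 2 for Tcf7, and 4 each for Lef1 and Zeb2. The first Tcf7 window seems to hold coding sequence of a longer Tcf7 isoform, so it may not be a promoter. Of the genes whose sequence is not shown, CCACCC or its other strand occurs 2 times in the Id2 window, 1 time in the Id3 window, in 3 of the 4 Lef1 windows, in 1 of the 2 Tcf7 windows and in 1 of the 4 Zeb2 windows. That Zeb2 window also holds TGANTCA 2 times, and the Bach2 window holds none of the 6. In the GENCODE vM21 annotation, exons cover the last 29 bases of the Klf2 window, the last base of the Foxo1 window, 161 bases of the Id2 window, all 250 of the Id3 window, 67 of 1 Tcf7 window and 98 to 191 of 3 Zeb2 windows, so these starts differ between annotations. A match is a description of letters, not a binding site.

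Each library held 28146402 to 39207045 whole reads, recovered from the deposited values, and the fewest reads behind any value of the 10 genes were 173, for Zeb2 in DAHB+O. Values are normalized counts, which are read counts that the authors divided by 1 size factor per library. They measure a gene's share of a library, and in bulk RNA fewer cells of a type and less RNA per cell cannot be told apart. Genes were called at a limma adjusted p under 0.05, and most genes were called: DAHB against NaCl 35.5% of 14169 tested genes higher and 38.4% lower, DAHB+O against DAHB 33.1% and 29.5%, and DAHB+O against NaCl 36.5% and 37.7%. The median log2 fold change of all tested genes was -0.02, 0.02 and -0.01 in these comparisons. Counts of called genes in any list below are to be read beside these shares of all tested genes.

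DAHB against NaCl is called the first step here and DAHB+O against DAHB the second. In the first step Tbx21, Eomes, Id2, Id3, Klf2 and Foxo1 were higher than in NaCl, Tcf7, Lef1 and Bach2 were lower, and Zeb2 did not pass the test. The rises ran from 1.35-fold for Id3 to 2.70-fold for Klf2, and the falls from 1.32-fold for Bach2 to 1.42-fold for Tcf7. Those 9 genes of 10 were called where 73.9% of all tested genes were, and the libraries of both groups were separate in 9 of 10 against 75.6% of all genes, so the number called is not itself a result about these genes. The median absolute log2 fold change of all tested genes in the first step was 0.42. Tbx21 (0.44), Id3 (0.43), Lef1 (-0.41) and Bach2 (-0.40) changed by about that much, so the size of their changes was ordinary here. In DAHB+O against DAHB, Tcf7, Id3 and Klf2 were higher, Id2, Foxo1 and Zeb2 were lower, and Tbx21, Eomes, Lef1 and Bach2 did not pass, a total of 6 called of 10 against 62.6% of all genes, with separate groups in 5 of 10 against 67.6%. In DAHB+O against NaCl, Tbx21, Eomes, Id3 and Klf2 were higher, Lef1, Id2, Bach2 and Zeb2 were lower, and Tcf7 and Foxo1 did not pass, a total of 8 called of 10 against 74.2%, with separate groups in 8 of 10 against 78.7%. These 3 comparisons share libraries, so a gene's values in one are not independent of those in another.

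**Figure D1:**
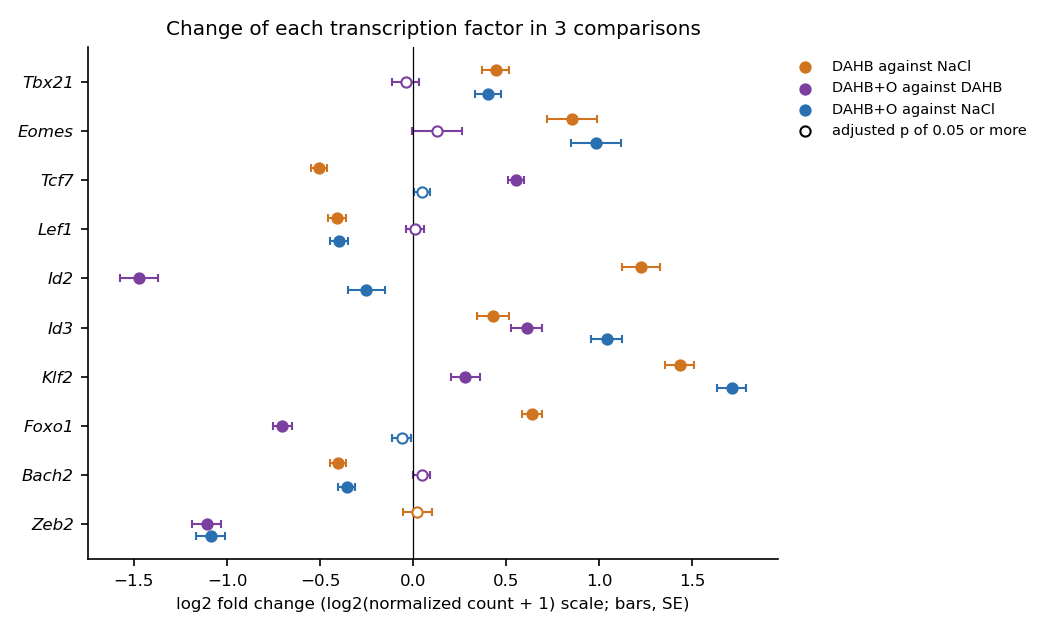
Log2 fold change (with standard error) of each of the 10 genes in the 3 comparisons, from 1 limma fit, with filled points where the adjusted p was under 0.05 and open points where it was not. Klf2 and Id3 have filled points above 0 in all 3 comparisons. Id2 and Foxo1 have filled points above 0 in DAHB against NaCl and below it in DAHB+O against DAHB, and Tcf7 does the opposite.

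Tbx21 (T-bet; chr11:97098071-97115331, minus strand, coordinates here and elsewhere on GRCm38, which is mm10) stood at 4417, 4009 and 4152 normalized counts in the NaCl libraries, 6562, 5514 and 5111 in DAHB and 5884, 5392 and 5357 in DAHB+O. Every library with DAHB lay above every NaCl library, and the DAHB and DAHB+O libraries overlapped. It rose by 0.44 ± 0.072 on the log2 scale in DAHB (SE, limma adjusted p = 4.56e-05) and gave -0.04 ± 0.072 in DAHB+O against DAHB (adjusted p = 0.644). Eomes (chr9:118478212-118486132, plus) was the scarcer of the pair, at 717, 587 and 547 in NaCl, 1458, 1034 and 907 in DAHB and 1225, 1298 and 1125 in DAHB+O. Again the NaCl libraries lay apart from the other 6, and DAHB replicate 1 was the highest of all 9. Eomes rose by 0.86 ± 0.13 in DAHB (adjusted p = 3.5e-05) and gave 0.13 ± 0.13 in DAHB+O against DAHB (adjusted p = 0.423). Without DAHB replicate 1 that last difference was 0.33 and passed (adjusted p = 0.00627).

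Genes that T-box factors are known to activate in killer cells rose with them in DAHB. Like every list here, this one was chosen with earlier results of these data known, so its counts are a description. Of 17 tested members of this list 15 were higher, none was lower and 2 did not pass, with a median log2 fold change of 1.42. Of all tested genes 35.5% were higher and 38.4% lower. Ifng, which encodes interferon-gamma, went from 1468 ± 241 to 5015 ± 870.1 normalized counts (SD, n = 3), and Cxcr3, a chemokine receptor of effector cells, from 400.1 ± 34.2 to 712 ± 18.8 (SD, n = 3). Il2rb, the beta chain of the IL-2 receptor, gave 0.08 on the log2 scale and did not pass (adjusted p = 0.0694). In DAHB+O against DAHB 11 of the 17 fell, 1 rose and 5 did not pass (median -0.60), where 29.5% of all tested genes fell and 33.1% rose. Neither Tbx21 nor Eomes passed there. The difference between the list and its factors was not tested. The pore-forming protein gene Prf1 fell by 3.29 on the log2 scale, the chemokine gene Ccl5 by 2.70, the granzyme B gene Gzmb by 1.35 and Il2rb by 0.58. Against NaCl, DAHB+O had 11 of the 17 higher and 4 lower (median 1.03), beside 36.5% and 37.7% of all tested genes. Ifng stayed higher by 1.09 and Il18r1, a subunit of the IL-18 receptor, by 1.47, while Gzmb gave -0.33, a direction that quantile normalization turned (0.19, adjusted p = 0.00925).

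**Figure D2:**
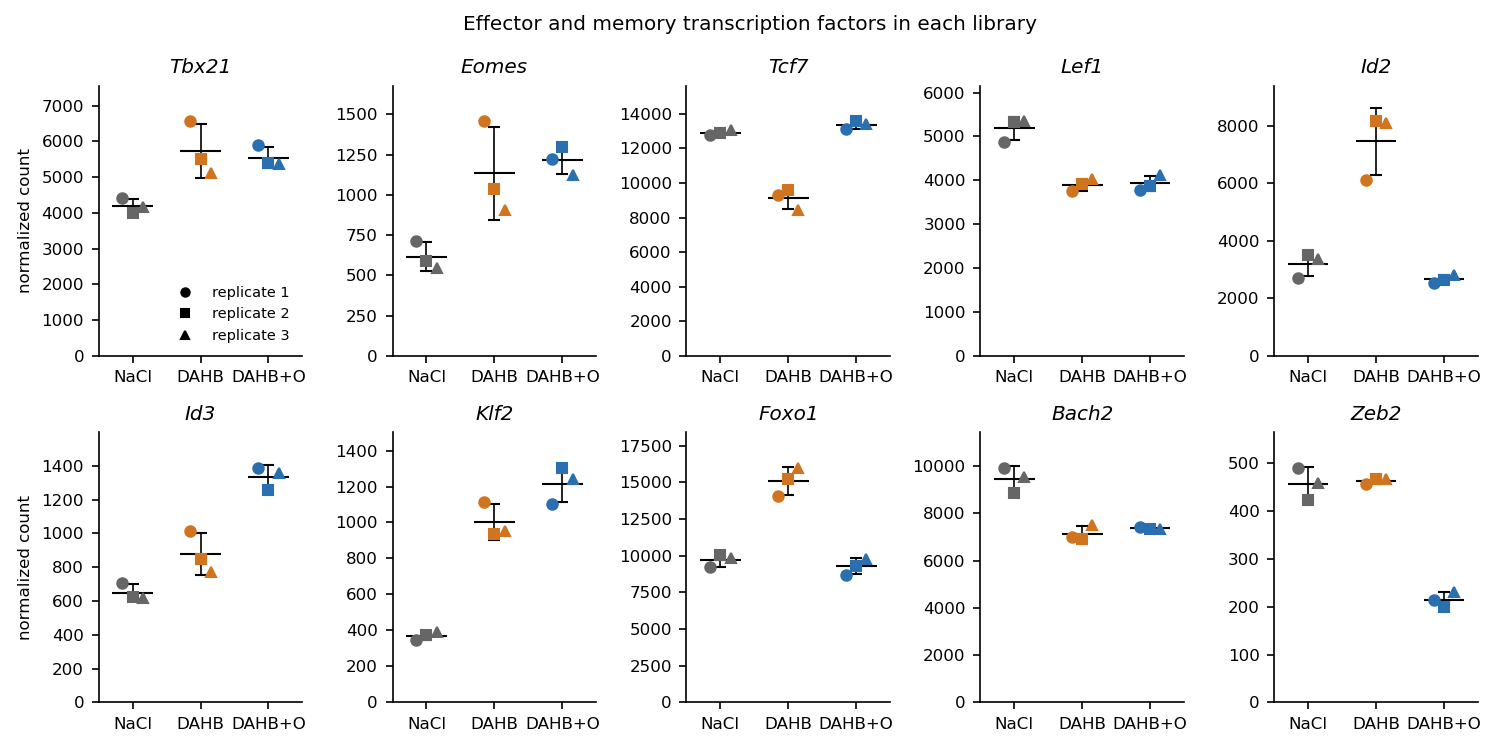
Normalized counts of each of the 10 genes in the 9 libraries, 1 panel a gene, with 1 point per library and black bars for the mean ± SD of 3 libraries. The NaCl libraries lie below the other 6 for Tbx21, Eomes, Id3 and Klf2 and above them for Lef1 and Bach2, and the DAHB libraries stand alone for Tcf7, Id2 and Foxo1.

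Tcf7 (TCF-1; chr11:52252371-52283014, minus) and Lef1 (chr3:131110471-131224356, plus), the WNT pathway pair of naive and memory cells, both fell in DAHB, and Tcf7 alone of the pair rose in DAHB+O against DAHB. Tcf7 stood at 12752, 12872 and 13083 normalized counts in NaCl, 9295, 9573 and 8448 in DAHB and 13098, 13571 and 13382 in DAHB+O. The DAHB libraries were the 3 lowest of the 9, and each DAHB+O library lay just above the highest NaCl library. It fell by 0.50 ± 0.043 on the log2 scale in DAHB (SE, limma adjusted p = 4.49e-08) and rose by 0.55 ± 0.043 in DAHB+O against DAHB (adjusted p = 3.5e-08). The difference of 0.05 ± 0.043 between DAHB+O and NaCl did not pass (adjusted p = 0.314), and did under quantile normalization (0.27, adjusted p = 1.51e-05). Lef1 stood at 4872, 5326 and 5348 in NaCl, 3755, 3923 and 4031 in DAHB and 3788, 3876 and 4126 in DAHB+O. All 6 libraries with DAHB were lower than all 3 of NaCl, and those of DAHB and DAHB+O overlapped. Lef1 fell by 0.41 ± 0.047 in DAHB (adjusted p = 1.25e-06) and by 0.40 ± 0.047 in DAHB+O against NaCl (adjusted p = 1.6e-06), and gave 0.01 ± 0.047 in DAHB+O against DAHB (adjusted p = 0.872).

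Among WNT pathway genes, Axin2, a feedback inhibitor and common target of TCF factors, ran like Tcf7, at 269 ± 8.33 in NaCl, 217 ± 6.22 in DAHB and 372 ± 13.7 in DAHB+O (SD, n = 3). It fell by 0.31 and rose by 0.78 on the log2 scale in the first and second step. Tle4, a corepressor of TCF factors, did likewise, from 1312 ± 61.5 to 812 ± 40.1 and 1310.1 ± 12.4 (SD, n = 3), whereas its relative Tle3 rose by 0.95 in DAHB and fell by 0.37 in DAHB+O against DAHB. Tcf7l2, the gene of the related factor TCF-4, was scarce in NaCl at 7.21 ± 1.96 and reached 55.2 ± 9.75 in DAHB and 88.4 ± 17.5 in DAHB+O (SD, n = 3). Over the 16 tested cofactors and relatives 8 rose, 7 fell and 1 did not pass in DAHB (median 0.06), and in DAHB+O against DAHB 6 rose, 5 fell and 5 did not pass (median -0.01). The 15 genes associated with TCF-1 and LEF1 in T cells split too, 7 higher, 6 lower and 2 not passing in DAHB (median 0.10), then 3 higher, 10 lower and 2 not passing in DAHB+O against DAHB (median -0.23). Of all tested genes 33.1% were higher and 29.5% lower in that second comparison. Slamf6, a receptor of stem-like cells, rose in both steps, by 0.90 and 0.39, and the costimulatory receptor gene Cd27 fell in both, by 1.57 and 0.31. Themis, a T cell receptor signalling protein, gave 0.10 in DAHB (adjusted p = 0.173) and fell by 1.97 in DAHB+O against DAHB.

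The inhibitors of E proteins diverged. Id2 (chr12:25093799-25097140, minus) rose 2.34-fold in DAHB and fell 2.78-fold in DAHB+O against DAHB, and Id3 (chr4:136143497-136145755, plus) rose in both steps. Id2 stood at 2715, 3498 and 3356 normalized counts in NaCl, 6129, 8168 and 8118 in DAHB and 2530.2, 2648 and 2823 in DAHB+O. The lowest DAHB library was above every other library, and the NaCl and DAHB+O libraries overlapped. Id2 rose by 1.22 ± 0.10 on the log2 scale in DAHB (SE, limma adjusted p = 3.23e-08) and fell by 1.47 ± 0.10 in DAHB+O against DAHB (adjusted p = 9.56e-09). Against NaCl it was lower in DAHB+O, at -0.25 ± 0.10 (adjusted p = 0.0361), a call that 12 of 24 alternatives lost, among them DESeq2 (adjusted p = 0.101) and the fits without NaCl replicate 2 (0.155), NaCl replicate 3 (0.126), DAHB+O replicate 1 (0.118) or DAHB+O replicate 2 (0.0809). Id3 stood at 706, 621 and 621 in NaCl, 1014, 850.2 and 774 in DAHB and 1389, 1257 and 1360.4 in DAHB+O, with no overlap between any groups. It rose by 0.43 ± 0.085 in DAHB (adjusted p = 0.000298) and by a further 0.61 ± 0.085 in DAHB+O against DAHB (adjusted p = 1.58e-05).

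The E protein genes Tcf3 and Tcf12, whose products ID2 and ID3 bind, fell in the first step and rose in the second. Tcf3, which encodes E2A, went from 5537 ± 192 with NaCl to 4066 ± 178 with DAHB, then 4653 ± 188 with DAHB+O (SD, n = 3), and Tcf12, which encodes HEB, from 3917 ± 53.3 to 3175 ± 69.1 and 4757 ± 27.4 (SD, n = 3). Id1, another inhibitor, was near the filter at 10.8 ± 2.30 in NaCl and rose to 18.4 ± 1.35 and 40.4 ± 4.22 (SD, n = 3). Its rise in DAHB (adjusted p = 0.0145) lost its call with DESeq2 (0.0679), under quantile normalization (0.689) and without NaCl replicate 3 (0.0602). Bhlhe40, a repressor of the same protein family, rose by 0.46 on the log2 scale in the first step and fell by 0.99 in the second. Of the 8 tested genes of this list 5 rose, 2 fell and 1 did not pass in DAHB (median 0.51), and 3 rose, 2 fell and 3 did not pass in DAHB+O against DAHB (median 0.27).

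Foxo1 (chr3:52268336-52353221, plus) and Klf2 (chr8:72319033-72321656, plus), a regulator of quiescent T cells and a gene it is known to activate, both rose in DAHB, and in DAHB+O against DAHB Foxo1 fell while Klf2 rose. Foxo1 stood at 9205, 10036 and 9826 normalized counts in NaCl, 14088, 15255 and 16002 in DAHB and 8718, 9328 and 9809 in DAHB+O. The DAHB libraries lay above the other 6, which overlapped. It rose by 0.64 ± 0.053 on the log2 scale in DAHB (SE, limma adjusted p = 3.04e-08), fell by 0.70 ± 0.053 in DAHB+O against DAHB (adjusted p = 2.47e-08) and gave -0.06 ± 0.053 in DAHB+O against NaCl (adjusted p = 0.3). Quantile normalization turned that last value to 0.16 (adjusted p = 0.0124). Klf2 stood at 344, 377 and 389 in NaCl, 1115, 936 and 954 in DAHB and 1105, 1305 and 1239 in DAHB+O. The NaCl libraries were far below the rest, and the lowest DAHB+O library lay within the range of DAHB. Klf2 had the largest rise of the 10 genes in DAHB, 1.43 ± 0.078 (adjusted p = 3.11e-10), and was higher by 0.28 ± 0.078 in DAHB+O against DAHB (adjusted p = 0.00586). That second call was lost without replicate 2 (0.155) or replicate 3 (0.0771) of every group.

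Known targets of FOXO1 and KLF2 moved in both directions. In DAHB 6 of 18 were higher and 12 lower (median -0.45), in DAHB+O against DAHB 2 were higher, 13 lower and 3 did not pass (median -0.35), and in DAHB+O against NaCl 3 were higher, 13 lower and 2 did not pass (median -0.65). Of all tested genes 38.4%, 29.5% and 37.7% were lower in these comparisons. S1pr1, the egress receptor driven by KLF2, went from 679.9 ± 94.6 with NaCl to 1919.5 ± 193 with DAHB, then 1275 ± 105 with DAHB+O (SD, n = 3). Il7r, the survival receptor for IL-7, fell by 0.46 in DAHB, and Ccr7, the chemokine receptor for lymph node entry, by 0.34. The cell cycle inhibitor Cdkn1b went from 4418 ± 132 to 1627 ± 204, and the ubiquitin ligase gene Fbxo32 from 1695 ± 111 to 397 ± 68.0 (SD, n = 3). Klf3, a relative of Klf2, also rose in both steps, by 0.61 and 0.73, and Klf6 rose by 0.48 and fell by 0.56. Of 13 tested KLF relatives 6 rose, 2 fell and 5 did not pass in DAHB (median 0.19), and 3 rose, 4 fell and 6 did not pass in DAHB+O against DAHB (median -0.09). Among 18 tested FOXO relatives and genes of the PI3K-AKT pathway, which controls FOXO1 protein, 4 rose, 7 fell and 7 did not pass in DAHB (median -0.05), and 7 rose, 9 fell and 2 did not pass in DAHB+O against DAHB (median -0.07). Foxo3 followed Foxo1, up by 0.49 and then down to 5076 ± 136 from 6849.7 ± 1082 (SD, n = 3). Pik3r1, a regulatory subunit of PI3K, fell in both steps (-0.41 and -0.66).

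Bach2 (chr4:32238804-32586108, plus), the repressor at AP-1 sites, fell in DAHB and did not pass the test in DAHB+O against DAHB. It stood at 9923, 8856 and 9529 normalized counts in NaCl, 7004, 6892 and 7501 in DAHB and 7401, 7330.4 and 7334 in DAHB+O. The 6 libraries with DAHB were all below those of NaCl and overlapped with each other. It fell by 0.40 ± 0.045 on the log2 scale in DAHB (SE, limma adjusted p = 8.27e-07) and by 0.36 ± 0.045 in DAHB+O against NaCl (adjusted p = 3.01e-06), and gave 0.05 ± 0.045 in DAHB+O against DAHB (adjusted p = 0.392), which passed only under quantile normalization of the alternatives run (0.12, adjusted p = 0.0286). B cells also express Bach2, and summed B cell markers were lower in DAHB (2816 to 3053 normalized counts) than in NaCl (7687 to 8255). That fall lay in Ighm, which went from 7254 ± 271 to 2109 ± 113 (SD, n = 3). Of the 9 tested B cell markers 4 were lower in DAHB, 3 were higher, Cd79b among them (426 ± 1.87 to 579 ± 5.14, SD, n = 3), and 2 did not pass. The part of B cells in the fall of Bach2 was not tested. Prdm1, the gene of Blimp-1 that BACH2 is known to repress, went from 804 ± 157 with NaCl to 6607 ± 542 with DAHB, then 1363 ± 196 with DAHB+O (SD, n = 3), so it fell in the step in which Bach2 did not pass. Batf, an AP-1 factor of effector cells, took the same course, from 1085 ± 36.0 to 2151 ± 38.3 and 948 ± 44.8 (SD, n = 3). Bach1, the closest relative, gave 0.14 in DAHB (adjusted p = 0.128), and Mafg, a small MAF partner, fell by 0.71 and then rose by 0.34. Of the 13 tested relatives, partners and AP-1 genes of this list 6 rose, 3 fell and 4 did not pass in DAHB (median 0.18), and 6 rose, 4 fell and 3 did not pass in DAHB+O against DAHB (median -0.13).

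Zeb2 (chr2:44983632-45117395, minus), the partner of T-bet in terminal effector cells, was the one gene of the 10 that DAHB did not move past the test. It stood at 490.2, 423 and 458 normalized counts in NaCl, 456, 467 and 467 in DAHB and 214, 199 and 230.3 in DAHB+O. The NaCl and DAHB libraries overlapped, and the 3 of DAHB+O were each less than the lowest of the other 6. DAHB gave 0.02 ± 0.078 on the log2 scale (SE, limma adjusted p = 0.815), and Zeb2 fell by 1.11 ± 0.078 in DAHB+O against DAHB (adjusted p = 1.25e-08), which is 2.16-fold. Its relative Zeb1, linked to memory cells, ran otherwise, from 1766 ± 22.0 with NaCl to 843 ± 62.9 with DAHB, then 1355 ± 16.0 with DAHB+O (SD, n = 3), with log2 fold changes of -1.07 and 0.69. Il2, a growth factor gene that ZEB1 is known to repress, rose from 4.57 ± 0.829 to 123 ± 24.4 in DAHB and stood at 93.1 ± 13 in DAHB+O (SD, n = 3). The corepressor gene Ctbp1 fell by 0.76 in DAHB and rose by 0.26 in DAHB+O against DAHB. Of 11 tested relatives and corepressors 5 rose and 6 fell in DAHB (median -0.21), and 4 rose, 2 fell and 5 did not pass in DAHB+O against DAHB (median -0.08).

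Ratios of paired members within a library are free of library scaling, and their differences are free of gene length. The log2 ratio of Id2 to Id3 was 1.94, 2.49 and 2.43 in NaCl, 2.59, 3.26 and 3.39 in DAHB and 0.86, 1.07 and 1.05 in DAHB+O. No groups overlapped, and the DAHB mean exceeded the DAHB+O mean by 2.09, which is 4.24-fold. The ratio of Foxo1 to Klf2 was 4.71 ± 0.0452, 3.92 ± 0.225 and 2.93 ± 0.0834 in the same order (mean ± SD, n = 3), again with no overlap, as Klf2 gained on Foxo1 in each step. The ratio of Tcf7 to Lef1 was 1.32 ± 0.0619 in NaCl and 1.22 ± 0.133 in DAHB, which overlapped, and 1.76 ± 0.0592 in DAHB+O, which stood above both (SD, n = 3). The ratio of Tbx21 to Eomes was 2.77 ± 0.15 in NaCl, above 2.36 ± 0.168 in DAHB and 2.19 ± 0.117 in DAHB+O, which overlapped (SD, n = 3). With 3 libraries against 3, the two-sided exact permutation test cannot go below p = 0.1. By that exact test 10 of the 12 comparisons, which are 4 ratios in 3 contrasts, reached this p (adjusted p = 0.12), and the others were Tcf7 to Lef1 in DAHB against NaCl (p = 0.5, adjusted p = 0.5) and Tbx21 to Eomes in DAHB+O against DAHB (p = 0.3, adjusted p = 0.327).

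**Figure D3:**
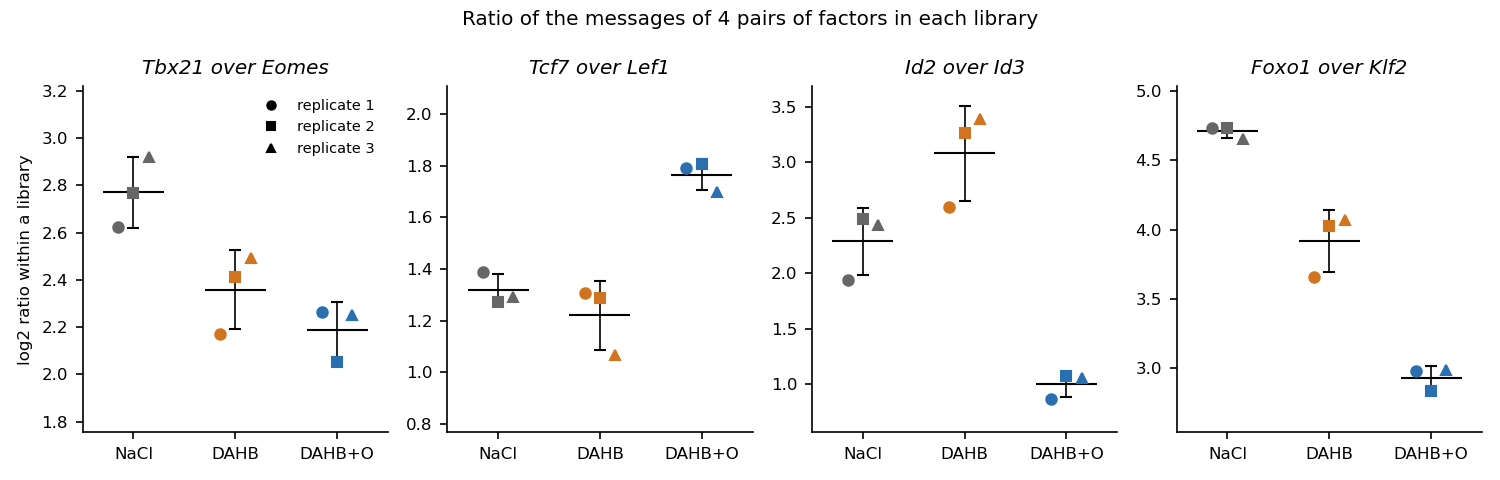
Log2 ratio of normalized counts of 4 pairs of genes in each of the 9 libraries, 1 point per library, with black bars for the mean ± SD of 3 libraries. The ratio of Id2 to Id3 is highest in DAHB and lowest in DAHB+O, that of Foxo1 to Klf2 falls from NaCl to DAHB to DAHB+O, and that of Tcf7 to Lef1 is highest in DAHB+O.

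Compared per kilobase of exon, Tcf7 had the highest mean of the 10 messages and Zeb2 the lowest in every group. In NaCl the order of normalized counts per kilobase was Tcf7 (4915), Tbx21 (1685), Id2 (1308), Foxo1 (1118), Bach2 (949), Lef1 (589.6), Id3 (363), Klf2 (200.3), Eomes (148) and Zeb2 (22.9), and only the neighbours Id2 and Foxo1 overlapped between libraries. In DAHB Id2 moved up to second place (3065), between Tcf7 (3469) and Tbx21 (2303), and its libraries overlapped with those of both. Klf2 (542) stood above Lef1 (444), and Id3 (491) overlapped with both. In DAHB+O Tbx21 was second (2228), Id2 (1094) and Foxo1 (1072) overlapped, and Id3 (746) overlapped with Bach2 (739.9). Lengths are those of all exons merged in GENCODE vM21, and the annotation behind the counts is not given in the sources used here. Neither is the strand setting, and antisense genes cover part of the exons of 5 of the 10: 13.7% in Lef1 (Gm43352), 7.78% in Foxo1 (Gm20402), 5.40% in Bach2 (Bach2os), 3.27% in Zeb2 (Zeb2os) and 2.84% in Eomes (Gm33460). Without strand, reads there cannot be told apart.

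The genes whose course over the 9 libraries was most like that of each member were found among 11646 tested genes with a mean of at least 50, by the root mean square difference of log2 values centred on each gene's mean. With most genes changed in these groups, near courses are common, and each is a description. Tcf7 had the closest matches, Bcap29 (0.0206), Wdr5 (0.0286) and Zfp397 (0.0294). For Tbx21 they were Myc (0.04), Srsf6 (0.0419) and Gfod2 (0.053), and for Eomes Cuedc1 (0.137), Sema4b (0.139) and Dcbld2 (0.139). Lef1 was nearest to Paqr7 (0.0381), Vps26b (0.0384) and Scml4 (0.046), and Bach2 to Son (0.0337), Ube3a (0.034) and Purb (0.0374). Id2 had Efemp2 (0.0836), RP23-265F20.7 (0.0858) and Arhgef10 (0.0908), and Id3 had Them6 (0.0687), Cdk10 (0.0819) and Zmat3 (0.0888). Around Klf2 lay Rab31 (0.077), Cmpk2 (0.109) and Ctif (0.118), around Foxo1 Epsti1 (0.0494), Gng2 (0.0514) and Il4ra (0.0534), and around Zeb2 Slc16a13 (0.0765), Stat3 (0.0894) and Pgk1 (0.0985). Among the 10 themselves Lef1 and Bach2 were nearest to each other (0.0827), followed at a distance by Tcf7 with Bach2 (0.236) and Eomes with Id3 (0.245).

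Other regulators of effector and memory CD8 T cells, 30 genes, were mixed in DAHB, with 14 higher, 8 lower and 8 not passing (median 0.04), and mostly lower in the second step, with 5 higher, 22 lower and 3 not passing in DAHB+O against DAHB (median -0.37). Of all tested genes 29.5% were lower in that comparison. Stat3, a mediator of IL-10 and IL-21 signals, was 33388 ± 488 in NaCl, 33031 ± 1345 in DAHB and 16437 ± 542 in DAHB+O (SD, n = 3), a course close to that of Zeb2. Gata3 went the way of Tcf7, falling by 1.00 in DAHB and rising by 1.09 in DAHB+O against DAHB. Cbfb, the partner subunit of RUNX factors, fell by 1.11 in DAHB, and Ikzf3, which encodes Aiolos, fell by 0.76 in DAHB+O against DAHB.

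**Figure D4:**
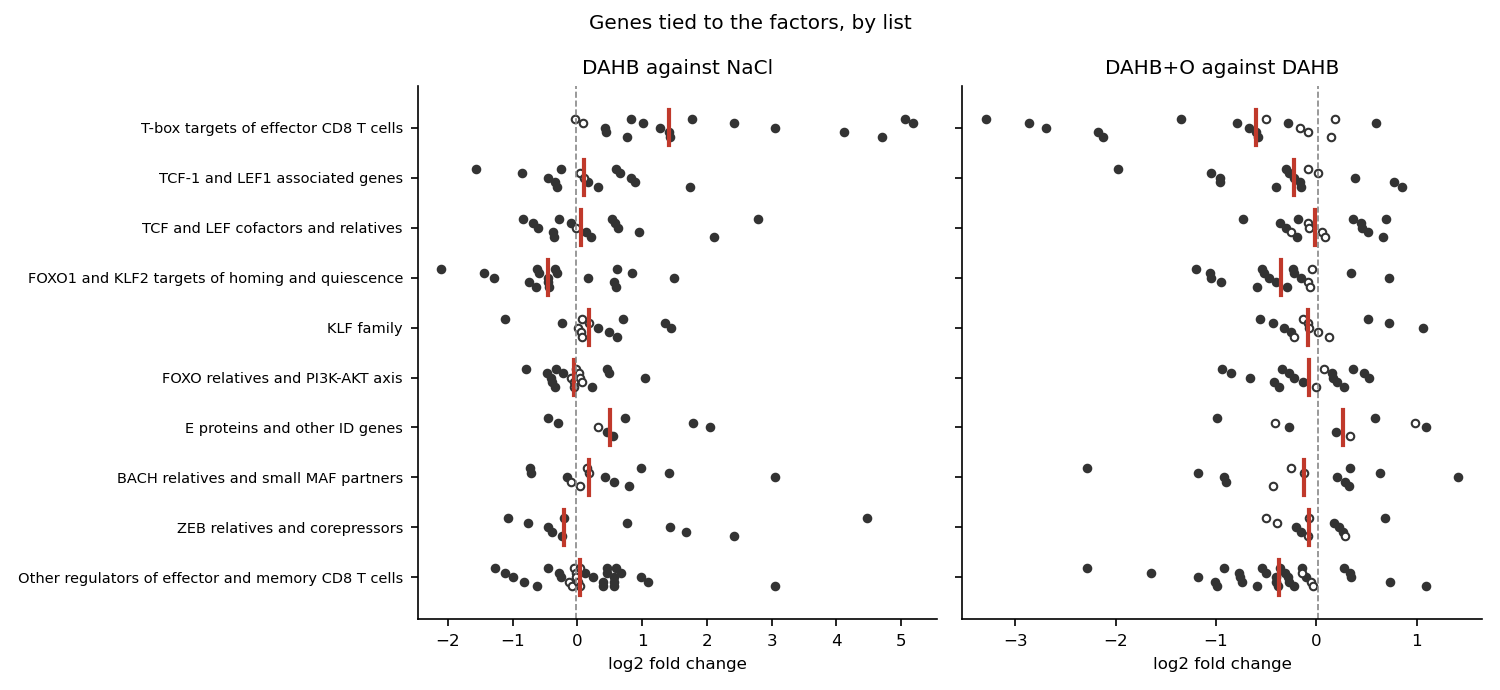
Log2 fold change of every tested gene of the 10 gene lists in DAHB against NaCl and in DAHB+O against DAHB, with filled points where the limma adjusted p was under 0.05, open points where it was not, a red bar at the list median and a dashed line at the median of all tested genes. The T-box targets have a median of 1.42 in DAHB against NaCl and -0.60 in DAHB+O against DAHB.

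The libraries carried the messages of the labelled cell type. The summed level of 12 CD8 T cell markers was 183699 to 190666 normalized counts with NaCl, 206421 to 212497 with DAHB and 150094 to 155605 with both agents, and Cd8a was 16906 ± 320.3, 22083 ± 762 and 16415 ± 220.2 (SD, n = 3). Some of the 10 genes are also active in other blood cells: Bach2, Foxo1, Lef1 and Id3 in B cells, and Id2, Zeb2 and Klf2 in myeloid or natural killer cells. Summed B cell markers (9 of 11 measured) were 7687 to 8255 with NaCl, 2816 to 3053 with DAHB and 2069 to 2254 with both agents, most of it Ighm, while the defining gene Ms4a1 was 30.2 ± 2.72, 42.5 ± 9.93 and 26.1 ± 6.96 (SD, n = 3). Monocyte and macrophage markers (10 of 12) summed to 713 to 877, 1783 to 2169 and 1099 to 1271. The highest of them, Cd68, was 321 ± 23.9, 1037 ± 93.6 and 602 ± 31.8, and Csf1r was 45.1 ± 14.1, 7.59 ± 4.33 and 21.4 ± 7.34 (SD, n = 3). Of the 9 tested in DAHB against NaCl 5 were higher, Cd68 among them, 3 were lower, Csf1r among them, and 1 did not pass. Dendritic cell markers (10 of 12) summed to 8155 to 8443, 14823 to 16088 and 11809.8 to 12204. In DAHB against NaCl 8 of them were higher, 1 did not pass and 1 was lower, Xcr1, at 56.0 ± 15.9, 24.4 ± 1.48 and 3.95 ± 1.83 in the 3 groups (SD, n = 3). Natural killer markers (9 of 10) summed to 747 to 896, 914 to 1073 and 762 to 775, with Ncr1, which was below the filter, at 6.85 ± 1.26, 3.01 ± 1.75 and 3.36 ± 1.37 (SD, n = 3). Of the 8 tested in DAHB against NaCl 3 were higher, 3 were lower and 2 did not pass. Markers of CD4 and regulatory T cells (6 of 6, mostly Ctla4, which activated CD8 T cells also express) summed to 23199 to 23717, 32675 to 38882 and 14126 to 15934, with Cd4 at 168 ± 18.4, 216 ± 8.82 and 231 ± 23.4 (SD, n = 3). Of the 5 tested in DAHB against NaCl 3 were higher, Cd4 among them, 1 did not pass and 1 was lower, Ikzf2. Gamma delta T cell markers (6 of 6) summed to 554 to 635, 468 to 505 and 355 to 427. Of the 5 tested in DAHB against NaCl 3 were lower, 1 did not pass and 1 was higher, Sox13, at 5.94 ± 2.81, 42.4 ± 4.68 and 86.5 ± 9.06 in the 3 groups (SD, n = 3). Stromal markers (3 of 5) summed to 1207 to 1318, 1892 to 2096 and 1770.1 to 1956, and neutrophil markers (2 of 5) to 4.14 to 17.7, 30.8 to 98.0 and 3.78 to 8.93. No measured marker was at 0 in any library, but neither was any other measured gene. The lack of zeros therefore cannot show which cells were present. The part of other cells in the values of the 10 genes was not tested.

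Within groups the 10 genes varied more at the median than all tested genes. Their median coefficient of variation was 5.96% in NaCl, 8.14% in DAHB and 5.42% in DAHB+O, against 4.90%, 6.60% and 4.80% over all tested genes. The highest was 25.4%, for Eomes in DAHB. Replicate 1 of NaCl was the highest of its group for Tbx21, Eomes, Id3, Bach2 and Zeb2 and the lowest for Tcf7, Lef1, Id2, Klf2 and Foxo1. Replicate 1 of DAHB was the highest of its group for Tbx21, Eomes, Id3 and Klf2 and the lowest for Lef1, Id2, Foxo1 and Zeb2. Of the 10 genes, 9 kept their call in DAHB against NaCl in each of 24 alternatives, those without replicate 1 included, and Zeb2 passed in none.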

How the data were processed

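Poly(A) RNA of 9 libraries was sequenced. The authors deposited 1 table of a signal per gene and library, which are read counts divided by 1 size factor per library, as the deposited values themselves show: 100% of them were whole reads within 1e-06 of a read. Per the submitters' processing notes, the work used DESeq2, HTSeq 0.9.1, Picard, STAR 2.4 and Trim Galore 0.4.5 with the build mm10. Their roles, a strand setting and an annotation were not given in the sources used here. Values were taken to log2 after adding 1, so folds of weak genes are understated. Genes with a mean of 10 or more (14169) were tested with limma 3.58.1 (R 4.3.3), trend in the variance, 9 libraries in 1 fit without a block, two-sided, with Benjamini-Hochberg adjustment over all tested genes and calls under 0.05. The test was checked on simulated data only for its recovery of changes planted in a small part of the genes. That check set no bound on false calls, and in the real data most genes were called. EdgeR 4.0.16 and DESeq2 1.42.0 ran on recovered reads as alternatives. EdgeR called 5333 genes higher and 5173 lower in DAHB against NaCl, 4627 and 4417 in DAHB+O against DAHB, and 5373 and 5188 in DAHB+O against NaCl. The other alternatives were pseudocounts of 0.5 and 10, no filter, a minimum mean of 50, only 6 libraries, the replicate block, TMM, quantile normalization, a robust variance model, voom and leaving out each library. Leaving out 1 replicate number of every group was chosen after seeing the data. The 10 genes and all lists were chosen with earlier results of these data known. Named were the 10 genes, up to 4 called genes of a list per comparison with the smallest p, stated partners and targets of the 10, the 3 nearest genes of each, and markers by list. Some genes that this rule names are left out of the text. Coordinates and exon lengths came from GENCODE vM21, promoters from RefSeq (GRCm38.p6). No 2 libraries of a group agreed within sampling noise (chi-square per gene 2.07 to 12.8).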

Additional observations from a re-analysis of the deposited data

How the results depend on the processing

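Of 720 alternative log2 fold changes of the 10 genes, 689 kept their direction and their side of the threshold, 14 lost a call, 4 gained one and 13 changed sign. Of the values that changed sign 1 passed the test, that of Foxo1 in DAHB+O against NaCl under quantile normalization (0.16), and Gzmb did likewise there (0.19). In DAHB+O against DAHB, Lef1 changed sign with edgeR (-0.0021), DESeq2 (-0.0031) and voom (-0.0017), without DAHB replicate 1 (-0.018) or DAHB+O replicate 3 (-0.026), and without replicate 3 of every group (-0.0024), and leaving out single libraries gave -0.026 to 0.035. In the same comparison Tbx21 turned positive under quantile normalization (0.024), without DAHB replicate 1 (0.061) and without replicate 1 of every group (0.018), with -0.12 to 0.061 over single libraries left out, and Eomes turned negative without DAHB replicate 3 (-0.017), with -0.017 to 0.33. Zeb2 in DAHB against NaCl turned negative without NaCl replicate 2 (-0.033) and without replicate 2 of every group (-0.039), with -0.033 to 0.073 over single libraries left out. The cause was not tested. The call of Id2 in DAHB+O against NaCl was also lost with TMM (adjusted p = 0.055), edgeR (0.05005), voom (0.0687), the robust model (0.138) and quantile normalization (0.49). The 132 alternative ratios kept their direction, with at most 3 libraries a group behind each.

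Same-numbered libraries deviated together weakly, with correlations across genes of 0.0348 to 0.113 for NaCl with DAHB, 0.0528 to 0.16 for DAHB with DAHB+O and 0.0273 to 0.0735 for NaCl with DAHB+O, and each of 6 libraries per comparison correlated best with its own number. Libraries of unlike number correlated at most at 0.0111, 0.0415 and 0.0164 in the same order, below every same-numbered pair of that comparison. The labels name no pairing and not every pair passed 0.1, the cut used here, so the main fit has no block. Whether same-numbered libraries share an origin was not tested. With the replicate block the counts of the 10 genes were 6 higher and 3 lower in DAHB against NaCl, 3 and 3 in DAHB+O against DAHB, and 4 and 4 in DAHB+O against NaCl, as without it. Over all genes the block gave 5129 higher and 5554 lower, 4826 and 4319, and 5274 and 5444.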
